A study of Mus musculus with 6 samples.

Results

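B-lineage identity genes are the genes by which a developing B cell is recognised, and 9 of them were read here in Ba/F3 cells: Pax5, Ebf1, Ikzf1, Cd79a, Cd79b, Cd72, Blnk, Vpreb1 and Igll1. Every probe set annotated to one of these genes alone was taken, which gave 16 of 34945 single-gene probe sets, and the 9 genes stand beside 18193 measured in all. One further probe set is annotated to both Vpreb1 and Vpreb2 and was not counted. Ba/F3 is a mouse cell line, grown with interleukin 3 and usually described as pro-B. The cells had been transduced with a retroviral Tet-on construct for NCOR1-LYN, which joins parts of the corepressor NCOR1 and of the SRC family kinase LYN. The control group (genotype control, DOX(-), 3 arrays) is described as uninduced, and the NCOR1-LYN group (DOX(+), 3 arrays) was given doxycycline to switch the fusion on. Effects of doxycycline and of the fusion cannot be told apart here, because cells given the drug without the construct were not analysed. Whether the transduced cells came from 1 clone is not given in the sources used here. The labels leave unsaid how separate the triplicate cultures were, and the p-values below rest on the spread among these arrays, which may be technical.

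In B-cell development, IKAROS (from Ikzf1) acts early in lymphoid progenitors, EBF1 opens and switches on B-cell genes, and PAX5 then holds the cell to the B lineage. Their targets include the parts of the pre-B-cell receptor: VPREB1 and IGLL1 stand in for the light chain, and CD79A and CD79B carry the signal across the membrane. BLNK is the adaptor that links this signal to downstream enzymes, and CD72 is an inhibitory coreceptor on B cells that recruits the phosphatase SHP-1.

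The promoters of Cd79a, Vpreb1 and Igll1, known targets of EBF1 and of E2A proteins (from Tcf3), are shown because their transcripts were all dim in these cells, together with that of Cd72, which was not. Each runs 5′ to 3′ on the strand of the gene, from 250 bases before to 50 after the RefSeq start site (GRCm38.p6). Capitals mark the E-box CAGGTG, bound by E2A, and the core EBF motif CCCNNGGG, on either strand. Sites that depart from these letters are not marked, so a missing mark does not show that a promoter lacks a site.
Cd79a (chr7:24897247-24897546, plus strand): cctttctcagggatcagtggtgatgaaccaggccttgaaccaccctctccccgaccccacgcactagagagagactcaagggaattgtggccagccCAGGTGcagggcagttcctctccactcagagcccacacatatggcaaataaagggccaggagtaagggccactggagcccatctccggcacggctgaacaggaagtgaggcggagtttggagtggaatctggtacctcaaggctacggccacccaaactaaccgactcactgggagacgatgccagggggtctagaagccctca
Vpreb1 (chr16:16869206-16869505, minus strand): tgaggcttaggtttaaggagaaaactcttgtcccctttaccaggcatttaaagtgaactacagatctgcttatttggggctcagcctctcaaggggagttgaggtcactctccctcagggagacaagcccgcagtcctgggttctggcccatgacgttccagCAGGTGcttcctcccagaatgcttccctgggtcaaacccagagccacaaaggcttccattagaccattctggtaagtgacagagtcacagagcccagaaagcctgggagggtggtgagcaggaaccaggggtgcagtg
Igll1 (chr16:16863936-16864235, minus strand): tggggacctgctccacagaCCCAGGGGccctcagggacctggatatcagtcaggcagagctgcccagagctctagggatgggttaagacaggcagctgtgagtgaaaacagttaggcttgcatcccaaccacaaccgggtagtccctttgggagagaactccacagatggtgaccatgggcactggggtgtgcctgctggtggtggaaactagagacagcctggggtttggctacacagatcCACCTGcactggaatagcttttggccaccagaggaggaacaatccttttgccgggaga
Cd72 (chr4:43454577-43454876, minus strand): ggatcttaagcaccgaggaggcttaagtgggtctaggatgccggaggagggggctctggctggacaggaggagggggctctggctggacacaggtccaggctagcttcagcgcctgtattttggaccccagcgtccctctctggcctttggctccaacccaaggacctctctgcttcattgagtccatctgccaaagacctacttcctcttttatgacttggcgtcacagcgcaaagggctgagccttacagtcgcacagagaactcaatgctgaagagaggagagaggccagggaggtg

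The E-box began at position −154 from the start site in Cd79a, −88 in Vpreb1 and −8 in Igll1, and the EBF motif at −231 in Igll1. RefSeq held 10 promoters for 8 of the 9 genes, all but Cd79b. The E-box was in 4 of the 10, the fourth being that of Blnk (−160), against 20.2% of 32851 promoters of the same length. CCCNNGGG was in 2, those of Igll1 and of 1 of the start sites of Ikzf1 (−56), against 13.7% of all, and the IKAROS core TGGGAA, searched on both strands, in 1, an Ebf1 promoter (−207), against 25.6%. The searched motifs did not overlap in these promoters. These are matches of letters, and binding was not measured.

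Most of the B-lineage identity genes gave signals near the bottom of the arrays in both groups. Signals are MAS5 intensities, which the authors had scaled per array, and the median probe set of an array lay between 54.8 and 61.9. Above a signal of 200 on all 6 arrays lay 2 of the 16 probe sets, those of Cd79b and Cd72, against 36.2% of all single-gene probe sets. Both Ikzf1 probe sets were above 200 on some arrays, and the other 12 probe sets on none. Of these 12, 10 stayed below 64 on every array, and for 4 genes (Ebf1, Cd79a, Blnk and Vpreb1) this held for every probe set. Such signals are common, as from 50.6 to 52.8% of all probe sets of an array read below 64. The share of all probe sets that did so on every array was not counted. Nearest to the limit of 200, the lowest array of Cd72 read 317 and that of the brighter Ikzf1 probe set 175. A dim MAS5 signal is noisy and no detection calls were used, so these values do not show that a transcript was absent. In bulk RNA, fewer cells with a transcript and less of it per cell cannot be told apart.

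**Figure D1:**
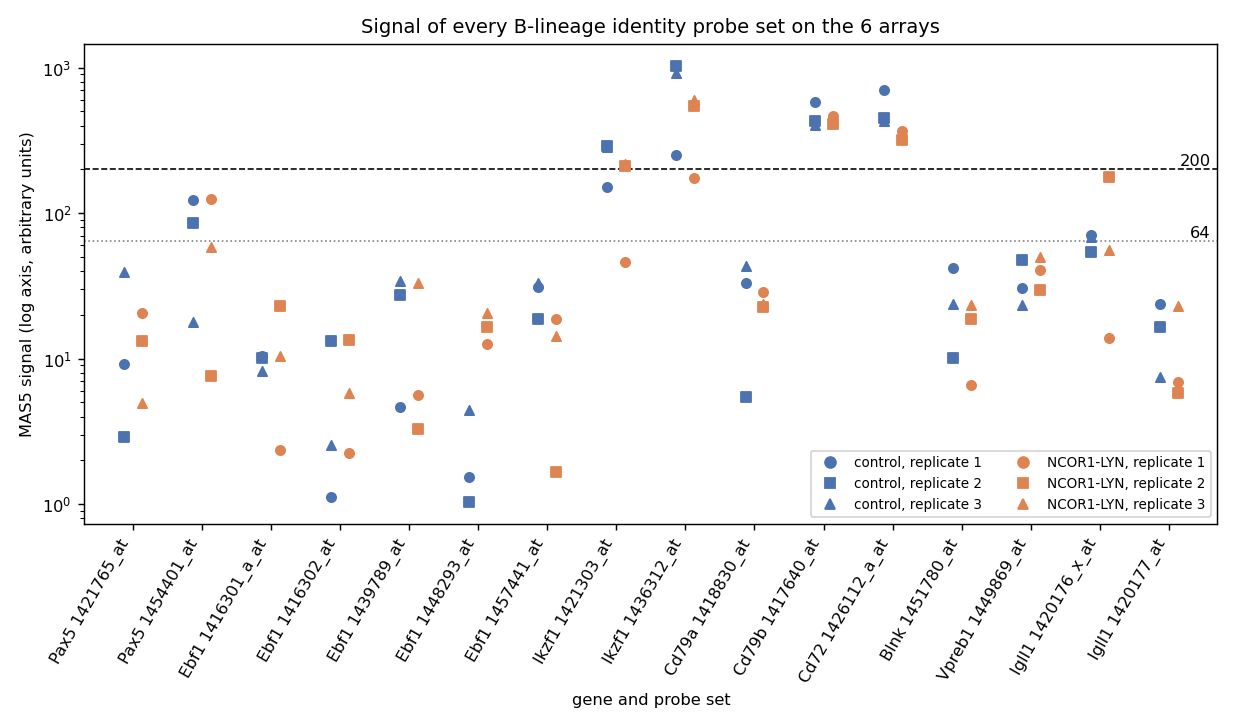
Signal of each of the 16 probe sets (log axis) on each array, with controls in blue, NCOR1-LYN in orange and a marker shape per replicate number. The dashed line is a signal of 200, passed on all arrays by Cd79b and Cd72 alone, and the dotted line is 64.

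Ebf1, the gene of the factor that starts the B-cell program, has 5 probe sets, and their signals ran from 1.03 to 34.4 over all arrays. Probe set 1439789_at, which reached the highest of these, read 4.65, 27.4 and 34.4 in control replicates 1, 2 and 3 and 5.62, 3.28 and 33.0 in NCOR1-LYN replicates 1, 2 and 3. In every NCOR1-LYN array 1448293_at was above the controls, with 1.54, 1.03 and 4.47 against 12.7, 16.6 and 20.7. By contrast, 1457441_at was lower in every NCOR1-LYN array, with 30.9, 18.9 and 33.0 against 18.8, 1.66 and 14.2. These Ebf1 probe sets thus parted the groups in opposite directions, both below a signal of 64, and neither passed in limma over all probe sets (lowest adjusted p = 0.71, and 0.467 with the replicate block).

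Pax5, whose product keeps B cells committed, was read by a pair of probe sets. The brighter, 1454401_at, gave 123, 86.1 and 17.8 in controls and 125, 7.65 and 58.5 with NCOR1-LYN. Its arrays spread widely within both groups, which overlapped, and the log2 fold change was −0.16 ± 0.42 (SE; adjusted p = 0.999 over all genes in limma). The other, 1421765_at, read between 2.89 and 39.6 on all arrays.

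Ikzf1, the gene of the zinc finger factor IKAROS, was the transcription factor of the set with a clear signal. Its brighter probe set, 1436312_at, read 250, 1029 and 918 in control replicates 1, 2 and 3 and 175, 542 and 596 in NCOR1-LYN replicates 1, 2 and 3. Replicate 1 was the low array of each group, and the groups overlapped because control 1 lay below NCOR1-LYN 2 and 3. Within each replicate number the NCOR1-LYN array was the lower, by −0.39, −0.85 and −0.57 on the log2 scale for replicates 1, 2 and 3. The same order held in the dimmer 1421303_at, with 152, 290 and 284 against 46.1, 211 and 219 and pairwise changes of −0.97, −0.36 and −0.30. Over all genes tested, 18.9% were lower in all 3 pairs. The pairwise size was not the same in both probe sets, since replicate 1 had the smallest change in the brighter and the largest in the dimmer.

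The gap between replicate 1 and the others was larger for Ikzf1 than the gap between groups. The mean of replicates 2 and 3 was 3.90 times replicate 1 in controls and 3.25 times with NCOR1-LYN in the brighter probe set, or 1.89 and 4.66 times in the dimmer. On the log2 scale, replicate 1 of the brighter probe set lay −1.72 and −1.40 from the mean of replicates 2 and 3. A gap of at least 1 in this direction in both groups was found for 64 of 10916 genes, or 0.586%, a limit chosen after the values were seen.

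Ikzf1 did not pass in the comparison of all arrays. Its log2 fold change was −0.61 ± 0.56 without a block and −0.61 ± 0.13 with the replicate number as a block (SE; limma adjusted p = 0.999 and 0.119). Leaving out 1 array moved the value without a block from −1.18 (control 1 left out) to −0.14 (NCOR1-LYN 1 left out). Without both replicate 1 arrays, it was lower in NCOR1-LYN by −0.71 ± 0.10 and passed (limma, adjusted p = 0.00186 over all genes and 0.041 over all probe sets), in fits of 2 arrays a group that called 6.82% of all genes and 0.996% of all probe sets. The dimmer probe set had −0.33 there and did not pass (adjusted p = 0.386).

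**Figure D2:**
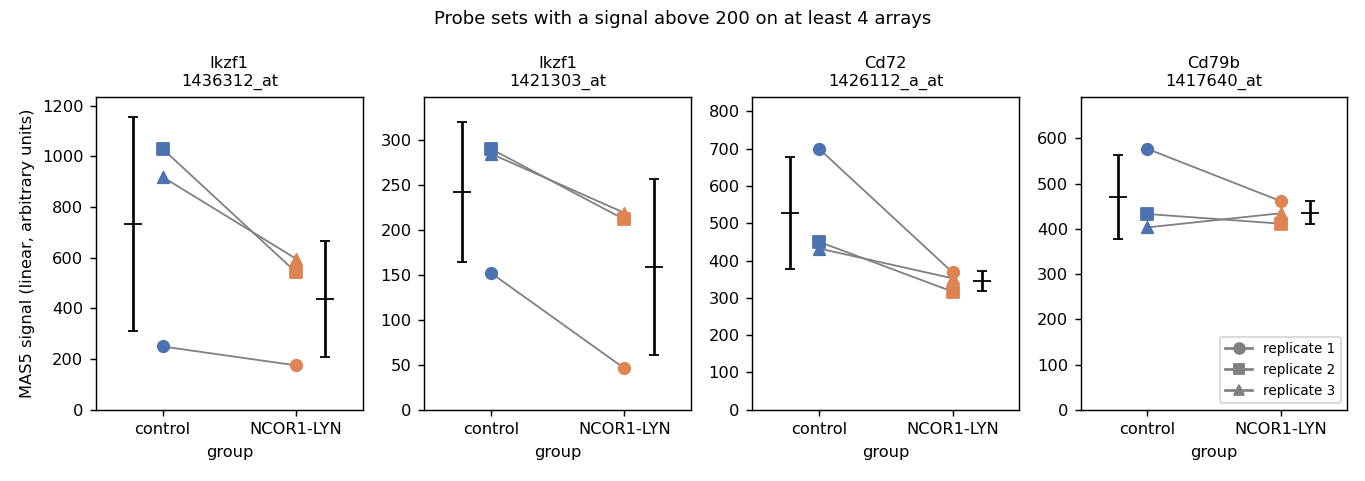
Signal (linear axis from 0) of the probe sets of Ikzf1, Cd72 and Cd79b by group, with grey lines joining arrays of the same replicate number and black bars for mean ± SD (n = 3). Replicate 1 is low for Ikzf1 in both groups, while for Cd72 all NCOR1-LYN arrays lie below all controls.

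The signalling chains of the B-cell receptor differed in level. Cd79a, on probe set 1418830_at, read 32.8, 5.47 and 43.0 in controls and 28.6, 22.5 and 23.7 with NCOR1-LYN, all under the median of the array. Cd79b, on 1417640_at, read 577, 433 and 403 in controls and 461, 412 and 435 with NCOR1-LYN. Control 1 was the highest Cd79b array, the groups overlapped, and the log2 fold change was −0.09 ± 0.16 (SE; limma adjusted p = 0.999). Its sign turned without control 1 (0.05) and without both replicate 1 arrays (0.02). A probe set reads only its own transcript on a scale of its own, so the gap between both chains is not a ratio of their RNA.

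Cd72 had the largest shift against its spread among the bright genes when no block was fitted. It read 700, 450 and 432 in control replicates 1, 2 and 3 (527 ± 149, SD, n = 3) and 368, 317 and 352 with NCOR1-LYN (346 ± 26.4, n = 3). All NCOR1-LYN arrays lay below all controls, in pairwise steps of −0.82, −0.43 and −0.25. The log2 fold change was −0.50 ± 0.20 (SE), with an unadjusted p of 0.0363 and an adjusted p of 0.969 over all genes in limma, or 0.241 with the replicate block. Part of its size came from control 1, the highest array, without which it was −0.30. Blnk, the adaptor gene, read 42.0, 10.1 and 23.8 in controls and 6.57, 18.7 and 23.2 with NCOR1-LYN, with overlapping groups below 64.

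The surrogate light chain genes were dim. Vpreb1, on 1449869_at, read 30.5, 47.7 and 23.5 in controls and 40.5, 29.6 and 49.8 with NCOR1-LYN. The probe set shared by Vpreb1 and Vpreb2 read between 4.35 and 61.8. For Igll1, 1420177_at read between 5.78 and 23.6. The other Igll1 probe set, 1420176_x_at, read 70.8, 53.8 and 68.7 in controls and 13.9, 179 and 55.7 with NCOR1-LYN, so that NCOR1-LYN 2 alone was above 100 while NCOR1-LYN 1 was the lowest of all. The suffix x marks probes that can bind other transcripts, and the log2 fold change was 0.03 ± 0.38 (SE; limma adjusted p = 0.999).

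Of the 9 genes, 5 passed the filter on dim genes, a mean signal of about 47 in their brightest probe set (Pax5, Ikzf1, Cd79b, Cd72 and Igll1), and 0 of these 5 passed in limma with all arrays. The same fit called 0.0824% of 10916 genes, and 0.824% with the replicate block, which also called 0 of the 5. An unadjusted p below 0.05 was found for 1 of the 5 without a block (Cd72) and for 2 with it (Cd72 and Ikzf1), against 4.75 and 11.3% of all genes. Of the 16 probe sets, 0 passed over all probe sets, where the fit called 0.00286%, or 0.0429% with the block, and 2 had an unadjusted p below 0.05 without the block (Cd72 and Ebf1 1448293_at), against 4.8% of all. With the block 5 had one (Cd72, both of Ikzf1, and 1448293_at and 1457441_at of Ebf1), against 8.64% of all. Groups that did not overlap were seen in 2 probe sets as lower (Cd72 and Ebf1 1457441_at) and 1 as higher (Ebf1 1448293_at), against 5.13 and 5.27% of all probe sets. The log2 fold changes of the 16 ran from −0.61 to 0.28, and 11 were below 0, some of them in probe sets below 64 on all arrays. The share of all probe sets below 0 was not counted, and the median over all genes in the gene fit was −0.01. On this scale of log2(signal + 64) changes of dim probe sets are understated.

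**Figure D3:**
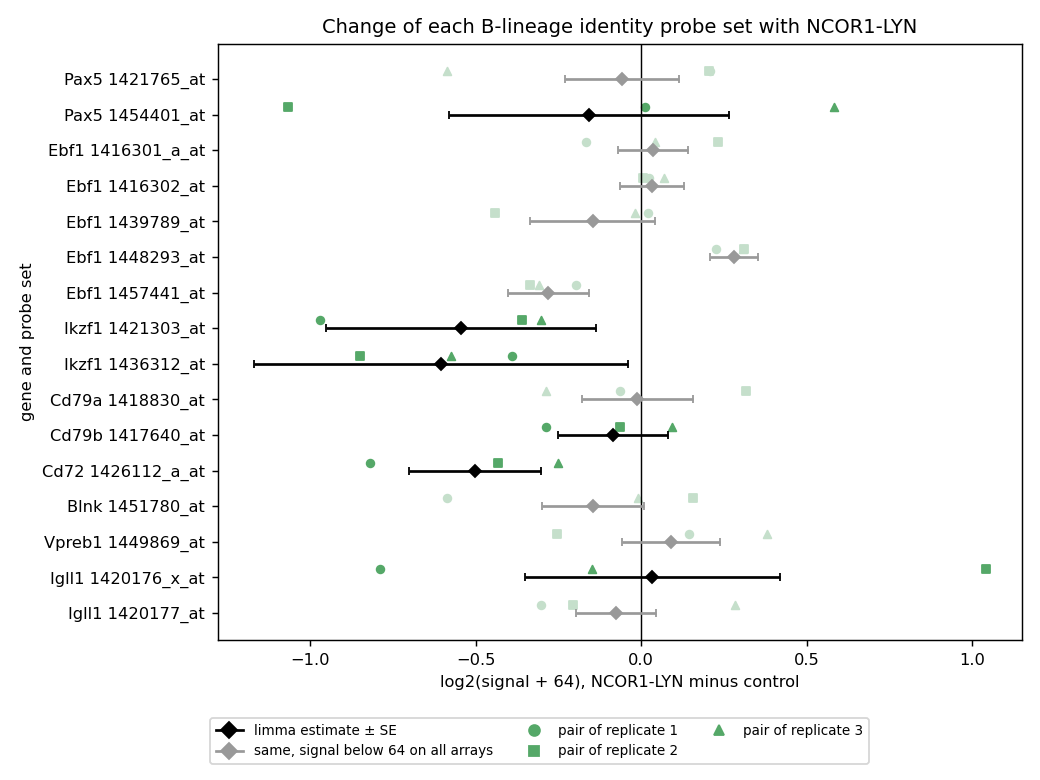
Change of log2(signal + 64) with NCOR1-LYN for each probe set, as the limma estimate with its SE (diamonds) and as the 3 pairs of the same replicate number (green). Both Ikzf1 probe sets, Cd72 and Ebf1 1457441_at lie below 0 in all pairs, and Ebf1 1448293_at and 1416302_at lie above it. Grey marks probe sets below 64 on all arrays.

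Other genes of the B-cell program were read in 4 lists, which were chosen with earlier results of these data known. Here and for the markers below, each gene was read by its brightest probe set. The shares of all genes above 200 or below 64 when read in this way were not counted. The 36.2% given above is over single probe sets, so it is no measure for these counts of genes. Of 25 annotated B-lineage transcription factors, 9 were above 200 on all arrays and 9 below 64 on all. The bright ones included Myb, a factor of progenitors (10163 ± 2906 in control and 11271 ± 1159 in NCOR1-LYN arrays, SD, n = 3), and, chosen after their values were seen, Tcf3 (1420 ± 685 and 1335 ± 458), which encodes E2A proteins, and the myeloid and B-cell factor Spi1 (1217 ± 366 and 1191 ± 297). The 13 in the fit had a median log2 fold change of −0.02, against −0.01 for all genes. Without a block 0 passed in limma, and with the block 1 fell.

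That 1 was Id2, whose product binds E2A proteins and keeps them off DNA. It read 652, 969 and 977 in control replicates 1, 2 and 3 and 189, 541 and 447 in NCOR1-LYN replicates 1, 2 and 3. On this probe set, 1435176_a_at, the brightest of Id2, all NCOR1-LYN arrays lay below all controls. Replicate 1 was again the low array of each group there. The log2 fold change was −1.10 ± 0.33 without a block and −1.10 ± 0.16 with it (SE; limma adjusted p = 0.715 and 0.0358). A dimmer Id2 probe set, 1422537_a_at, had −1.67 and the dimmest, 1453596_at, −0.31, and neither passed over all probe sets (limma adjusted p = 0.273 and 0.699 with the block). Over all probe sets the brightest had a limma adjusted p of 0.146 with the block. In 1422537_a_at replicate 1 was not the low array of either group, with 584, 426 and 305 in controls and 134, 21.7 and 150 with NCOR1-LYN.

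Genes of proximal signalling from the B-cell receptor were mostly bright, 12 of 15 annotated genes being above 200 on all arrays, and 0 of 13 in the fit passed in limma with or without the block. Their median log2 fold change was −0.04. The brightest, the lipid kinase gene Pik3cd, had 5781 ± 1211 in control and 5629 ± 1377 in NCOR1-LYN arrays (SD, n = 3). Pik3ap1, which encodes the adaptor BCAP, had the largest change, −0.50 ± 0.30 (SE; limma adjusted p = 0.999, and 0.16 with the block).

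Genes that mark B progenitors or mature B cells were mostly dim. Of 12 annotated genes of progenitor surface proteins, V(D)J recombination and the surrogate light chain, 10 were below 64 on all arrays, among them, chosen after their values were seen, the recombinase genes Rag1 and Rag2 (at most 20.7 and 8.77), Il7r (at most 43.7), the receptor gene of interleukin 7, and Dntt (at most 42.5), which encodes terminal transferase. Spn, the gene of CD43, was the exception above 200, with 2834 ± 413 in control and 3393 ± 560 in NCOR1-LYN arrays (SD, n = 3) and a log2 fold change of 0.25 ± 0.17 (SE; limma adjusted p = 0.999). Of 14 mature B-cell and antigen presentation genes, 7 were below 64 on all arrays, including Ms4a1, the gene of CD20 (at most 55.7, chosen after its values were seen). Ptprc, the gene of CD45, was the brightest (9712 ± 321 and 9617 ± 1169). Cd37, a tetraspanin gene, had the largest change, −0.70 ± 0.39 (SE, limma adjusted p = 0.999, and 0.254 with the block). Cd37 read 2931 in control 1 against 735 to 1097 on the other arrays. In both lists 0 genes passed with or without the block.

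**Figure D4:**
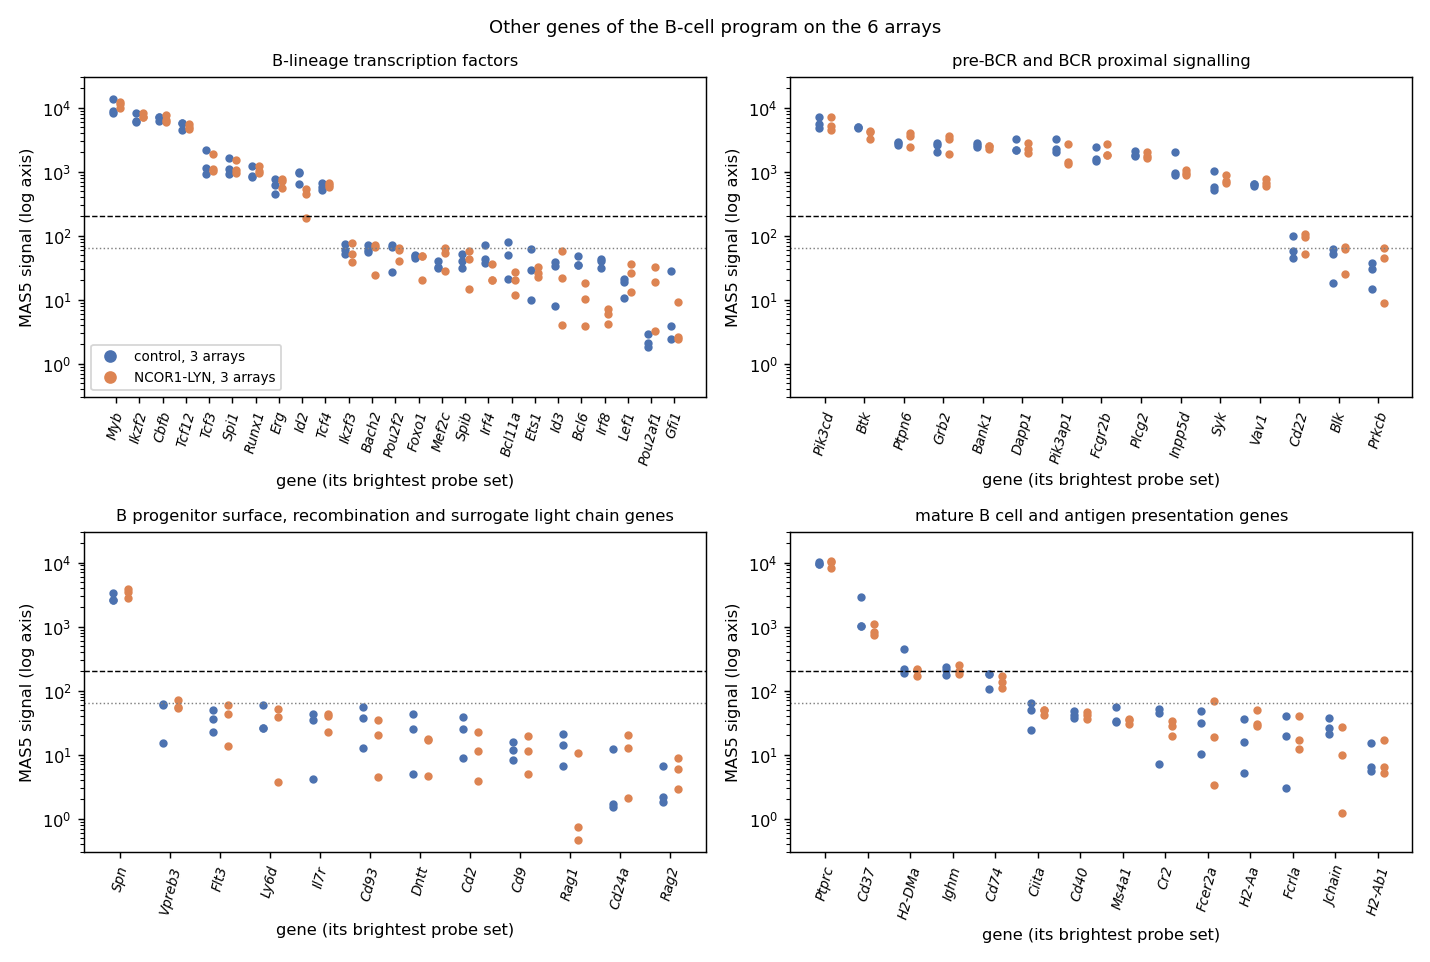
Signal (log axis) of the brightest probe set of each gene in the 4 lists, with 3 control arrays in blue and 3 NCOR1-LYN arrays in orange and lines at 200 (dashed) and 64 (dotted). Transcription factors and signalling genes fall into a bright and a dim set, while most progenitor and mature B-cell markers lie under 64 in both groups.

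Markers of B cells were set beside those of other blood cells. Of 8 annotated B-cell markers, 1 (Cd79b) was above 200 on all arrays and 5 were below 64 on all. All but Ms4a1 are among the 9 genes read above, so these counts largely repeat values already given. Cd72 and Ikzf1 are not on this marker list. Of 7 erythroid and megakaryocyte markers 5 were above 200 on all arrays and 2 below 64 on all. The brightest was Itga2b, which encodes integrin alpha IIb (4140 ± 1284 in control and 3147 ± 1676 in NCOR1-LYN arrays, SD, n = 3). Of 10 mast cell and basophil markers 2 were above 200 on all arrays and 4 below 64 on all. The brightest of these was the transcription factor gene Gata2 (9843 ± 3674 and 5461 ± 1033). Of 9 T and NK markers 0 were above 200 on all arrays and 6 were below 64 on all. Nkg7, a cytotoxic granule gene, was the brightest of them (265 ± 127 and 480 ± 68.2). The summed signal of 14 neutrophil and monocyte markers ran from 2725 to 3017 in controls and from 7745 to 10642 with NCOR1-LYN. That of the B-cell markers ran from 646 to 940 and from 690 to 731, and most of it came from Cd79b (471 ± 93.0 and 436 ± 24.9). Most of that neutrophil sum came from 2 granule genes, Ngp and Prtn3. Ngp had 822 ± 582 in control and 4439 ± 291 in NCOR1-LYN arrays (limma adjusted p = 0.417, and 0.0502 with the block). Prtn3 had 1195 ± 492 and 3618 ± 1638 (limma adjusted p = 0.61, and 0.226 with the block). Of the 14 genes, 4 were below 64 on all arrays, and of the 7 in the fit 1 passed, Ltf, a granule gene that rose from 60.8 ± 24.1 to 567 ± 80.8 (limma adjusted p = 0.0175, and 0.00613 with the block). Ltf did not pass without control 2, control 3, NCOR1-LYN 2 or NCOR1-LYN 3, where 0 of all genes passed. Nor did it pass over all probe sets (limma adjusted p = 0.094, and 0.0525 with the block). Other members had lower means with NCOR1-LYN, such as S100a8 (89.0 ± 71.4 and 18.3 ± 14.9) and S100a9 (105 ± 87.2 and 65.5 ± 21.9). Among the mast cell markers in the fit, 0 of 4 passed without the block and 1 fell with it, the chymase gene Cma1 (330 ± 246 to 46.2 ± 37.7, limma adjusted p = 0.0281 with and 0.534 without the block). Fcer1a, another of these markers, went the other way (568 ± 354 to 3234 ± 1457). It did not pass with all arrays (limma adjusted p = 0.26, and 0.0963 with the block). Prtn3, Ltf, S100a8, S100a9, Fcer1a and Cma1 were chosen after their values were seen. The part of these other markers in the levels of the B-lineage genes was not tested.

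Over the 6 arrays, the genes most like Cd72 in log2 signal were Tiam1, Adal and Ints3, with Pearson's r of 0.998, 0.996 and 0.995. Those most like Cd79b were Chmp1a, Rpusd1 and Arhgap4, with 0.998, 0.996 and 0.995. These arrays share their groups and replicate numbers, and such values are a description of 6 points drawn from 10916 genes.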

How the data were processed

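RNA of 6 Ba/F3 samples was hybridised to 1 array each. The authors deposited linear intensities, 1 per probe set, and the submitters' processing notes name MAS5 as the tool, without its version. Each array had a mean of 500 once 2% of its probe sets were trimmed at either end. From 50.6 to 52.8% of probe sets read below 64. The number of arrays limits the precision.

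Probe sets were named through the platform annotation. Of 45101, 64 were control probe sets, 932 had several gene symbols and 9160 none, and the remaining 34945 entered. Entrez identifiers of all 16 member probe sets matched the symbols of GRCm38.p6. Groups and replicate numbers came from the sample labels. Tests used log2(signal + 64) in limma 3.58.1 (R 4.3.3; lmFit, eBayes with trend, no covariate, Benjamini-Hochberg, threshold 0.05, two-sided). The gene fit took the probe set with the highest mean for each gene and dropped the lowest 40 percent of genes by mean log2, leaving 10916. The probe set fit took all 34945 with no filter. The fit was checked on simulated data.

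The arrays of replicates 1, 2 and 3 correlated across groups at 0.62, 0.41 and 0.44 in their deviations from the group means (across genes, which are not independent). As every value exceeds 0.1, the numbers were also fitted as a block, beside the main fit, which has none. Blocked values are given for part of the named genes. The labels name no shared day or batch.

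The text names every member with each probe set. For each of the 4 B-cell lists it names up to 4 genes past the threshold with or without the block, or failing that the one of largest change, and the brightest gene, and of each list of other blood cells the brightest. Genes outside this rule are said to be so where they are named. The members, lists and tests were chosen with earlier results of these data known. Alternatives covered the offset, the filter, quantile normalization, the probe set that stands for a gene, the block and leaving out arrays.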

Additional observations from a re-analysis of the deposited data

How the results depend on the processing

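With all 6 arrays, 0 of the 5 B-lineage identity genes in the fit and 0 of the 16 probe sets passed in limma. Both counts stayed at 0 with an offset 4 times smaller or larger, quantile normalization, the replicate block and any single array left out. The count of genes also stayed at 0 with other filters on dim genes and with the mean of all probe sets, which were not counted for the 16 probe sets. Leaving out both replicate 1 arrays changed both counts. That setting gave 1 gene and 1 probe set (Ikzf1, lower), 744 genes over all (6.82%) against 9, and 348 probe sets against 1. It also gave 8 genes of the other B-lineage lists against 0. Those 4 lists held 13, 13, 2 and 5 genes in the fit and were chosen with earlier results of these data known. Of these 8, Ikzf2, Myb, Grb2, Ptpn6 and Spn were higher, and Id2, Pik3ap1 and Cd37 were lower. Ikzf2, Grb2 and Ptpn6 are named here outside the rule given above. The cause was not tested. The replicate block gave 90 genes, 15 probe sets and 1 list gene (Id2). Over all genes, 1 passed with no filter on dim genes and 1 with the filter at the 60th percentile, and 0 to 15 passed without 1 array. Over all probe sets, 7 passed with a filter at the 40th percentile, 3 at the 60th, 2 with the smaller offset, 0 with the larger, and 0 to 2 without 1 array. Cd79b, with −0.09, had 0.0151 without both replicate 1 arrays and −0.18 to 0.0517 without 1 array (0.0517 without control 1). Ikzf1 ranged from −1.18 (without control 1) to −0.14 (without NCOR1-LYN 1) and Cd72 from −0.61 (without control 3) to −0.30 (without control 1). With a signal limit of 400 in place of 200, 1 probe set was above it on all arrays (Cd79b), and with a limit of 100 the brighter one of Ikzf1 joined, making 3. The 3 arrays a group limit what can be called, and signals below 64 carry little order.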
